A study of Mus musculus with 34 samples.

Results

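Peak lists of ChIP-seq, an assay that sequences DNA fragments pulled down with an antibody, were read around 10 imprinted genes in mouse bone marrow-derived dendritic cells (BMDCs). The genes, H19, Igf2, Kcnq1ot1, Meg3, Dlk1, Rasgrf1, Peg3, Grb10, Mest and Snrpn, were listed by name as imprinted genes with known CTCF sites, out of 55413 annotated genes, and all 10 were found in the GENCODE M21 annotation of mm10. Each gene was followed at its promoter, taken as the 2.5 kb before and after the first base of its longest transcript, and over the gene with 50 kb added on both sides. The windows of H19 and Igf2 overlapped, as did those of Meg3 and Dlk1, which left 8 windows of 1.54 Mb in all.

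The series held 30 peak lists, 1 per antibody and condition. Bone marrow came from C57BL/6 mice that carried CreER, a tamoxifen-activated Cre recombinase expressed from Rosa26, either alone (CTCF-WT) or with floxed Ctcf alleles (CreER;CTCF fl/fl, CTCF-KO), and the labels gave an age of 8 weeks. Both genotypes received 4-OH tamoxifen on the first day of a 6-day culture with GM-CSF, so the controls also carried active Cre, and the deletion was made in culture in every cell type present there. Cells were left untreated or given 100 ng/ml of LPS, a bacterial cell wall component, for 3 h. Antibodies against CTCF, the cohesin subunit SMC1, H3K4me3, H3K27ac, H3K27me3, H3K4me1 and the NF-kB subunit p65 gave 4 lists each, and STAT5 gave 1 list per genotype after a further 15 min of GM-CSF without LPS. As a check of the labelled cell type, all 10 dendritic and myeloid markers examined carried H3K4me3 and H3K27ac at their promoters in each condition. None of 3 neutrophil markers carried either, 1 of 4 B cell, 2 of 3 erythroid and 2 of 4 non-blood markers carried H3K4me3 but no H3K27ac, and T cell markers had 1 of 4 with H3K4me3 and at most 1 with H3K27ac. Because 1 list stood for each condition, no difference between conditions has a replicate check, and intervals cover counting error only. A missing peak means that no peak was called, not that nothing was bound.

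Imprinted genes are expressed mainly from the copy inherited from 1 parent, and the choice is held by control regions whose DNA methylation differs between the parental copies. CTCF is a zinc finger protein that binds a long, GC-rich motif and stops cohesin as it extrudes DNA loops. At the H19 and Igf2 locus CTCF is known to bind the unmethylated maternal control region and to keep enhancers near H19 from reaching Igf2, while methylation of the paternal copy blocks its binding. Peak lists do not separate the parental copies, so each value below is a sum over both.

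The CTCF sites differed in how well their DNA matched the core of the CTCF motif, searched on both strands as a 12-base pattern (CC, any base, C, any 2 bases, GG, any base, GGC), and the stretches shown are the 4 matches of the H19 control region and 1 match each from sites near H19, Meg3, Mest and Rasgrf1 that were kept or lost in CTCF-KO. Exact matches in the sites 12.9 kb upstream of Igf2, in the Ins2 and Kcnq1 introns, 16.4 kb upstream of Dlk1 and in an intron of Rasgrf1 are not shown. Each is 60 bases of the GRCm38 reference around a match, written 5′ to 3′ on the strand of the match, with the 12 matched bases in capitals. The first 4 lie upstream of H19 in its control region.
H19 control region, 2174 bp upstream (chr7:142580287-142580346, minus strand): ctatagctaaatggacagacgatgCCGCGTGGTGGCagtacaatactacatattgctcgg
H19 control region, 2629 bp upstream (chr7:142580742-142580801, minus strand): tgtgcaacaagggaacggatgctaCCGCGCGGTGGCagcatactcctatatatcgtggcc
H19 control region, 3655 bp upstream (chr7:142581768-142581827, minus strand): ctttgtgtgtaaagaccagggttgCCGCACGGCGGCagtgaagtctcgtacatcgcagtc
H19 control region, 3899 bp upstream (chr7:142582012-142582071, minus strand): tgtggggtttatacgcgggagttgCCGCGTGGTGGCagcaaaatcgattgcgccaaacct
Mrpl23 intron, downstream of H19 (chr7:142538002-142538061, plus strand): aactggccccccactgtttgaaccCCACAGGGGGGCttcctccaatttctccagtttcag
Site between H19 and Igf2 (chr7:142610729-142610788, plus strand): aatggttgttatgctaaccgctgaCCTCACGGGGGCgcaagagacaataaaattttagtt
Meg3 promoter (chr12:109543016-109543075, minus strand): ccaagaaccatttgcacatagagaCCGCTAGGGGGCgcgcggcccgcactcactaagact
Mest promoter, 1 mismatch (chr6:30737103-30737162, minus strand): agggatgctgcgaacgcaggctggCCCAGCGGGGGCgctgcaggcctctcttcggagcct
Downstream of Rasgrf1 (chr9:90027884-90027943, minus strand): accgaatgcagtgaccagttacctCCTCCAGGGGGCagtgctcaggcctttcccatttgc
Of the 4 matches upstream of H19, 3 also fit the longer 14-base consensus of that control region (CCGCG, any base, GG, any base, GGCAG), and the match 3655 bp upstream differed from it by 1 base. That consensus describes the control region itself, so its fit there is not a separate result. Summits with the 14-base consensus within 50 bp were rare in the genome, at 3 of 60537 CTCF peaks of CTCF-WT and 2 of 20151 peaks of CTCF-KO. In each of these 2 lists 1 of them was the peak of the H19 control region.

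Most CTCF sites around the 10 genes were lost in CTCF-KO, at a rate close to that of the whole genome. The windows held 25 CTCF peaks in CTCF-WT and 22 in CTCF-WT with LPS, against 8 in CTCF-KO and 5 in CTCF-KO with LPS. Of the 25 peaks of CTCF-WT, 18 had no overlapping peak in CTCF-KO and 7 were kept (28%, 95% Wilson interval 14.3 to 47.6%). Over the genome 76.3% of 60537 CTCF peaks were lost and 23.7% kept. With LPS, 17 of 22 were lost and 5 kept (22.7%, interval 10.1 to 43.4%), beside 82.5% lost over the genome. If each peak were kept at the share of genome peaks in its own strength class, 1 of 10 equal classes of its list, 6.84 of the 25 and 4.39 of the 22 would be kept. The count without LPS leaned on the window of H19 and Igf2, since without it 2 of 17 peaks (11.8%) were kept.

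Kept sites were the strong ones, and each of them was weaker in CTCF-KO. The fragments at a summit were recovered from each peak's fold and p-value. The 7 sites kept in CTCF-KO had 49 to 198 fragments in CTCF-WT (median 89), and the 17 sites lost had 17 to 88 (median 31). Strength over local background fell at all 7 kept peaks, by 1.10 to 2.13 on the log2 scale (median 1.54), and at all 5 kept with LPS (median fall of 1.95). The medians over all kept peaks of the genome were falls of 1.52 and 1.58. The CTCF-KO list was the shallower, with a usual background of 2.95 fragments against 3.74 in CTCF-WT, and its faintest peaks at that background had 15 fragments.

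**Figure D1:**
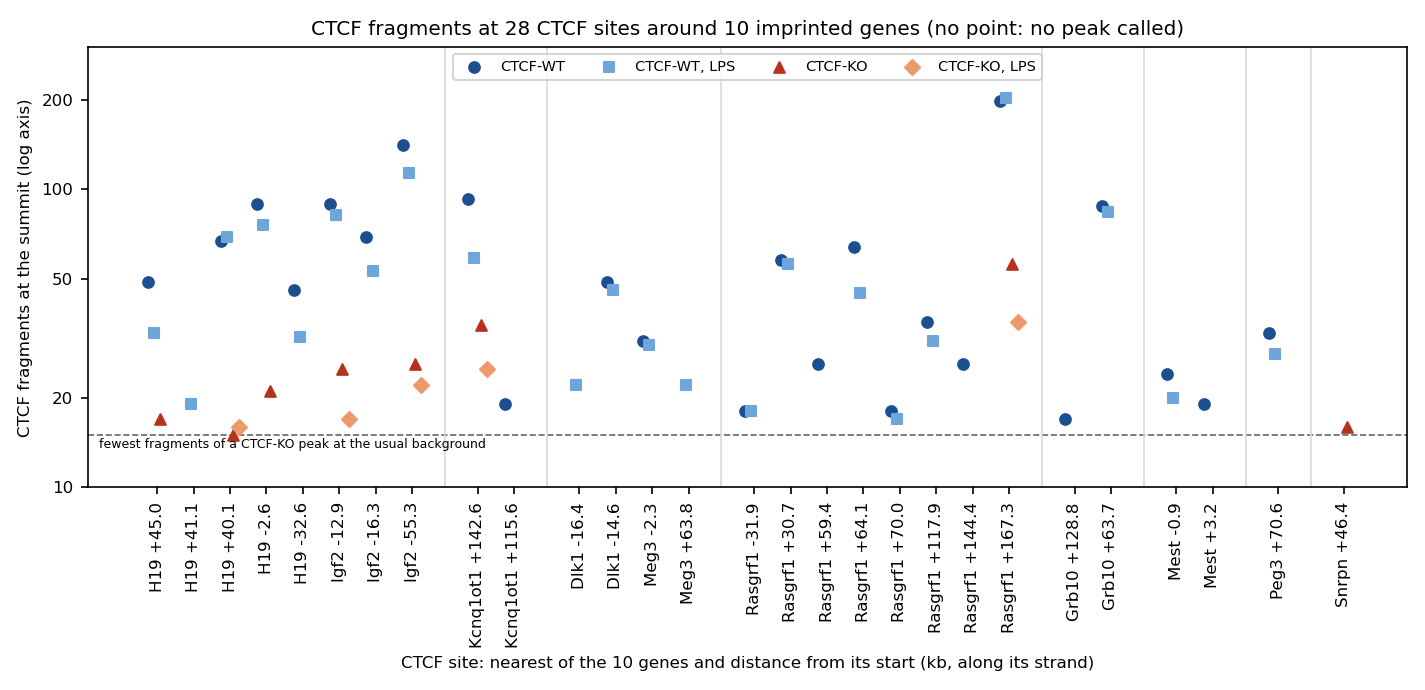
CTCF fragments at the summit (log axis) of each of 28 CTCF sites, in genome order within each window, in the 4 CTCF lists; a point is missing where no peak was called. Red and orange points, the CTCF-KO lists, stand at 15 to 56 fragments at 8 sites, and 5 of these are in the window of H19 and Igf2.

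Peaks merged across lists gave 28 CTCF sites, of which 13 lay in introns, 8 outside genes and 7 in promoters of any annotated gene. A peak was called in all 4 lists at 5 sites, in both CTCF-WT lists and CTCF-KO at 2, in both CTCF-WT lists alone at 12, in CTCF-WT alone at 5, in CTCF-WT with LPS alone at 3 and in CTCF-KO alone at 1. The 12-base pattern stood within 50 bp of the summit in 5 of 25 peaks of CTCF-WT (20%), beside 10% of all its CTCF peaks and 1% of the same windows moved 1 kb away. The counts were 5 of 22, 2 of 8 and 1 of 5 in CTCF-WT with LPS, CTCF-KO and CTCF-KO with LPS, beside 9.76%, 9.16% and 10.4% of all their CTCF peaks. In the RefSeq promoters (GRCm38.p6, a short stretch around each start) the pattern stood in 4.07% of 32851 entries, and of the 9 member genes with an entry only Grb10 held it, in 1 of its 2.

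SMC1 was kept more often in the windows than over the genome, and this turned on Rasgrf1. The windows held 34 SMC1 peaks in CTCF-WT, 31 with LPS, 24 in CTCF-KO and 16 in CTCF-KO with LPS. Of the 34, 19 were kept in CTCF-KO (55.9%, interval 39.5 to 71.1%), beside 65.5% of all SMC1 peaks lost and 34.5% kept. With LPS 13 of 31 were kept (41.9%, interval 26.4 to 59.2%), beside 76.7% lost over the genome. The Rasgrf1 window alone gave 14 of the 19 and 12 of the 13, and without it 5 of 17 (29.4%) and 1 of 12 (8.33%) were kept. At the genome shares of the same strength classes, 12.2 of the 34 and 7.15 of the 31 would be kept. Without Rasgrf1 these would be 6.03 of the 17 and 2.80 of the 12.

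Where CTCF was present, SMC1 was mostly lost. In CTCF-WT, 17 of the 34 SMC1 peaks overlapped a CTCF peak and 5 of these were kept in CTCF-KO, whereas 14 of the 17 without CTCF were kept. Over the genome 16.3% of SMC1 peaks with CTCF and 55.7% of those without were kept. With LPS the counts were 1 of 13 and 12 of 18, beside 10.8% and 37.9% over the genome. Without the Rasgrf1 window they were 2 of 12 with CTCF and 3 of 5 without, and 0 of 9 and 1 of 3 with LPS. The reverse view gave the same picture of the residual CTCF, since SMC1 accompanied 16 of 25 CTCF peaks in CTCF-WT but 2 of 8 in CTCF-KO and 1 of 5 in CTCF-KO with LPS (54.3%, 18.9% and 18.95% over the genome).

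**Figure D2:**
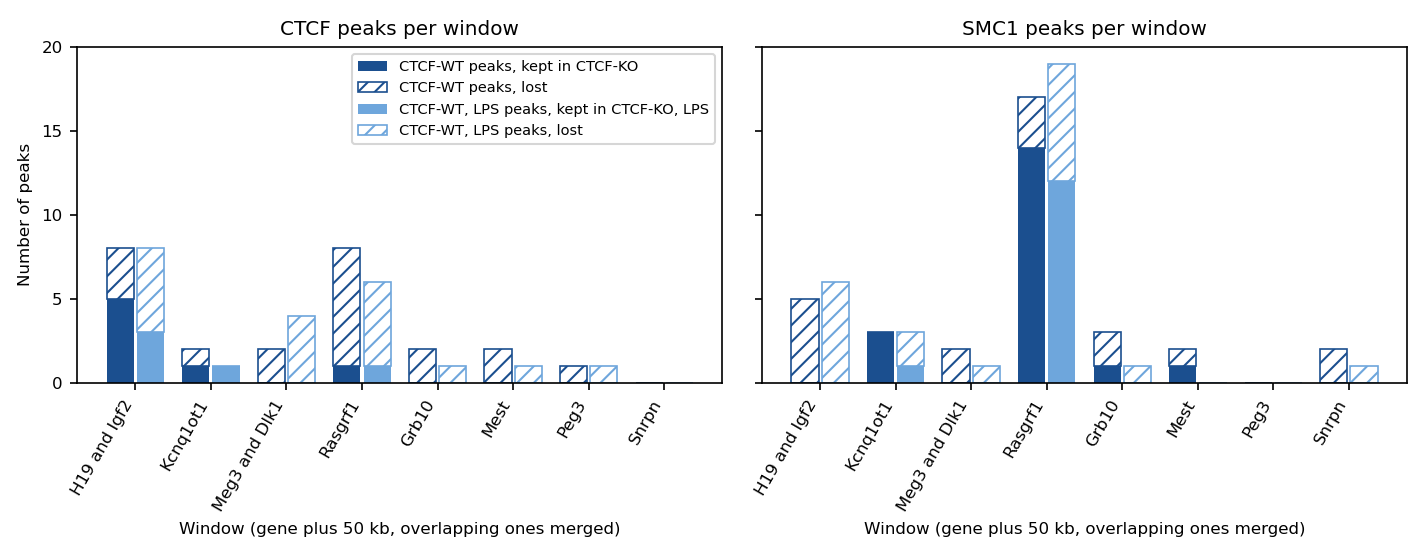
Number of CTCF (left) and SMC1 (right) peaks of CTCF-WT (dark) and of CTCF-WT with LPS (light) in each window, filled where the matching CTCF-KO list had an overlapping peak and hatched where it had none. Without LPS the window of H19 and Igf2 kept 5 of 8 CTCF peaks and 0 of 5 SMC1 peaks. That of Rasgrf1 kept 1 of 8 CTCF peaks and 14 of 17 SMC1 peaks. At the genome shares of the same strength classes 3.47 and 1.94 would be kept at H19 and Igf2. At Rasgrf1 these would be 1.62 and 6.12.

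H19, a maternally expressed long noncoding RNA (chr7:142575529-142578143, minus strand), carried CTCF in its control region at 16.7-fold over local background in CTCF-WT (89 fragments), 14.9-fold with LPS (76), 4.92-fold in CTCF-KO (21) and no peak in CTCF-KO with LPS. The strongest summit lay 2.6 kb upstream of the start. In CTCF-WT 2 peaks together covered all 4 motif matches printed above, and with LPS 1 peak did, while the CTCF-KO peak covered the match 2629 bp upstream alone. SMC1 was called there at 7.08-fold in CTCF-WT and 7.46-fold with LPS and in neither CTCF-KO list. A faint H3K4me3 peak at the same place, 3.29-fold in CTCF-WT (7 fragments) and 3.87-fold with LPS (8), was likewise absent from both CTCF-KO lists, where the faintest H3K4me3 peaks at the usual background had 6 fragments.

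Igf2 encodes a fetal growth factor expressed from the paternal copy (chr7:142650766-142666816, minus strand). Distances are counted from the start of its longest transcript (142659489), which lies inside the annotated gene. No CTCF or SMC1 peak lay within 2.5 kb of that start in any list. The nearest CTCF site, 12.9 kb upstream, had 89, 82, 25 and 17 fragments in CTCF-WT, CTCF-WT with LPS, CTCF-KO and CTCF-KO with LPS, and was thus kept in all 4. A site 16.3 kb upstream, with 69 and 53 fragments in the CTCF-WT lists, had no CTCF-KO peak. A site in an intron of Ins2, the insulin gene next to Igf2, was the strongest of the window, with 141, 113, 26 and 22 fragments.

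Between the 2 genes and beyond H19 the same window held 4 more sites. The site 32.6 kb upstream of H19 had 46 fragments in CTCF-WT and 32 with LPS, held an exact motif match and was lost in both CTCF-KO lists. Downstream of H19, the site in an intron of Mrpl23, a mitochondrial ribosomal protein gene, had 67, 69, 15 and 16 fragments and the site at the Mrpl23 promoter 49, 33, 17 and none. A faint site beside them was called only in CTCF-WT with LPS (19 fragments). SMC1 was at 5 sites of this window in CTCF-WT, with 107 fragments at the site 12.9 kb upstream of Igf2, 67 in the Mrpl23 intron and 64 at the H19 control region, and at 6 with LPS. None of these had an SMC1 peak in CTCF-KO or in CTCF-KO with LPS, also where residual CTCF was called. The SMC1 peaks of CTCF-KO began at 21 fragments.

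**Figure D3:**
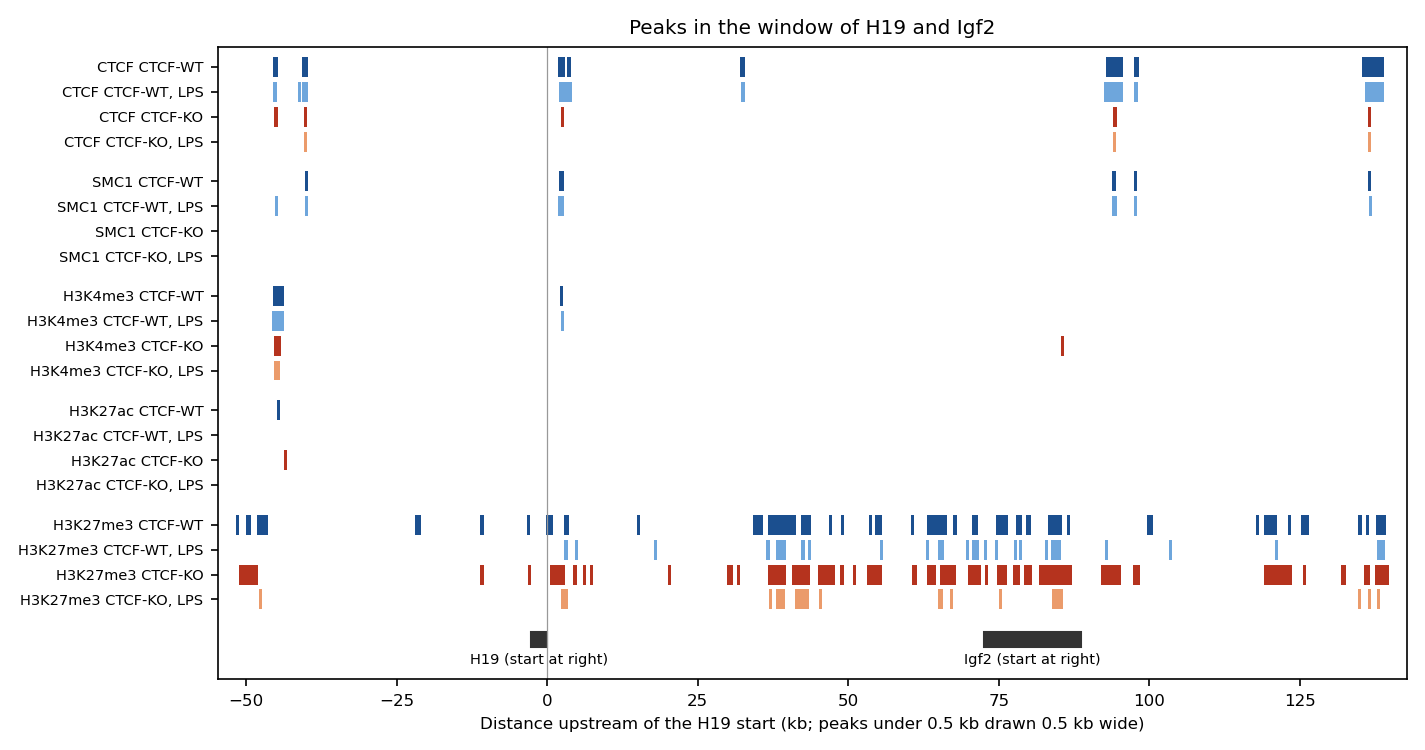
Peaks of 5 antibodies in 4 conditions in the window of H19 and Igf2, by distance upstream of the H19 start (kb). CTCF remained at 5 places in CTCF-KO, SMC1 at 0, and H3K27me3 lay mostly between H19 and the far side of Igf2.

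Kcnq1ot1 is the paternally expressed antisense RNA that lies within Kcnq1 and silences neighbouring genes (chr7:143203458-143296549, minus strand). Its promoter had no CTCF or SMC1 peak in any list. The strongest CTCF site of the window, in a Kcnq1 intron 142.6 kb downstream of the Kcnq1ot1 start, had 93, 59, 35 and 25 fragments and was kept in both states. SMC1 at that site had 116 and 117 fragments in the CTCF-WT lists and 41 in CTCF-KO, and no peak in CTCF-KO with LPS. A fainter intronic site 115.6 kb downstream had CTCF in CTCF-WT alone (19 fragments), while its SMC1 stood at 5.16-, 4.14-, 5.88- and 6.22-fold in the 4 lists, so SMC1 there did not track the CTCF call.

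Meg3, a maternally expressed long noncoding RNA, and Dlk1, a paternally expressed Notch-family ligand, form 1 imprinted domain (chr12:109541001-109571726 and chr12:109452823-109463336, both plus strand). CTCF at the Meg3 promoter had 31 fragments in CTCF-WT and 30 with LPS over the exact motif match printed above, and no peak in either CTCF-KO list. The summit of this CTCF peak lay 2.3 kb upstream of the start of the longest transcript (109545398), and thus inside the annotated gene. SMC1 was called there in CTCF-WT alone (26 fragments). A site 14.6 kb upstream of Dlk1 had 49 and 46 CTCF fragments and 44 and 44 SMC1 fragments in the CTCF-WT lists, and neither protein in CTCF-KO. Faint sites 16.4 kb upstream of Dlk1 and 63.8 kb downstream of the Meg3 start were called only in CTCF-WT with LPS (22 fragments each). No CTCF or SMC1 peak of a CTCF-KO list lay anywhere in this window.

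Rasgrf1 encodes an exchange factor that activates Ras and is expressed from the paternal copy (chr9:89909908-90026977, plus strand). Of the 8 CTCF peaks of its window in CTCF-WT 7 were lost and 1 was kept. At the genome shares of the same strength classes 1.62 of the 8 would be kept. With LPS 5 of 6 were lost and 1 was kept, beside 1.19 at those shares. The promoter of Rasgrf1 held no CTCF or SMC1 peak. Sites in its introns 30.7 and 64.1 kb downstream of the start, with 58 and 64 fragments in CTCF-WT and 56 and 45 with LPS, were lost in both CTCF-KO lists, together with their SMC1. A faint site 31.9 kb upstream of the start had 18 fragments in both CTCF-WT lists, and a site 117.9 kb downstream, shown above with its exact motif match, had 36 and 31, with no CTCF-KO peak at either. The strongest site of all 28, 167.3 kb downstream beyond Ctsh, was kept, with 198, 202, 56 and 36 fragments, and its SMC1 had 169, 178, 35 and 25.

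The SMC1 of the Rasgrf1 window lay largely at places without CTCF. Of 24 merged SMC1 sites in the window, 11 were called in all 4 lists, of which 7 also carried H3K27ac in CTCF-WT and 3 carried CTCF. Of the other SMC1 sites of the window, those 79.1, 123.0, 126.0, 133.1 and 146.7 kb downstream also carried H3K27ac in CTCF-WT. Only 1 SMC1 site of the other windows was called in all 4, the Kcnq1 intron site whose CTCF peak was faint. The Rasgrf1 window also reaches Ctsh, the gene of the lysosomal protease cathepsin H, whose promoter had H3K4me3 at 37.2-, 32.5-, 44.1- and 26.8-fold and H3K27ac at 20.7-, 22.3-, 18.9- and 16.1-fold. An SMC1 site in Ctsh 150.5 kb downstream of the Rasgrf1 start stood at 8.28-, 10.5-, 8.68- and 8.74-fold. How much of the kept SMC1 belongs to Ctsh rather than Rasgrf1 was not tested.

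Grb10, an adaptor that restrains insulin and growth factor signalling (chr11:11930508-12038683, minus strand), had 1 strong site in an intron 63.7 kb downstream of its start, with 88 and 84 CTCF fragments and 97 and 118 SMC1 fragments in the CTCF-WT lists. Both proteins had no peak there in CTCF-KO or CTCF-KO with LPS. The site held no exact motif match, which was common, as only 10 of the 28 sites held one. The CTCF peak of CTCF-WT (18.8-fold) reached within 2.5 kb of another annotated start of Grb10, and that with LPS did not. SMC1 reached it in CTCF-WT (15.3-fold) and with LPS (17.6-fold). Over the genome 72.4% of the CTCF peaks in its strength class overlapped a CTCF-KO peak, and 50.3% did so with LPS. A fainter site 128.8 kb downstream was called in CTCF-WT alone (17 fragments).

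Mest, which encodes an alpha/beta hydrolase-fold protein and is expressed from the paternal copy (chr6:30723547-30748465, plus strand), had CTCF at its promoter with 24 fragments in CTCF-WT and 20 with LPS and none in the CTCF-KO lists. SMC1 was called there in CTCF-WT alone (27 fragments). Peg3, a paternally expressed zinc finger gene (chr7:6703892-6730431, minus strand), had a single CTCF site in its window, 70.6 kb downstream, with 33 and 28 fragments in the CTCF-WT lists and none in CTCF-KO, and no SMC1 peak in any list. Snrpn, which encodes a spliceosomal protein (chr7:59982495-60140219, minus strand), had no CTCF peak in either CTCF-WT list. The one CTCF peak of its window was in CTCF-KO alone (4.30-fold, 16 fragments), in an intron 46.4 kb downstream of the start, where the CTCF-WT lists had faint SMC1 peaks of 21 and 23 fragments.

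CTCF at promoters was found at H19, Meg3 and Mest. These 3 of the 10 promoters held a CTCF peak in CTCF-WT and with LPS, 1 (H19) in CTCF-KO and 0 in CTCF-KO with LPS. Over all annotated promoters the shares were 21.3%, 19.6%, 11.6% and 6.45%. The H19 and Meg3 calls rest on the edge of the promoter window, since their peaks reach only the outer end of the 2.5 kb. With promoters of 1 kb, CTCF was at 1 of the 10 in CTCF-WT. SMC1 was at 3, 1, 0 and 0 of the 10 promoters, beside 21.6%, 19.5%, 13.8% and 8.85% over the genome.

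H3K4me3, a mark of active promoters, was called at 5 of the 10 promoters in CTCF-WT (Kcnq1ot1, Rasgrf1, Mest, Peg3 and H19), at the same 5 with LPS, at 4 in CTCF-KO and at 3 in CTCF-KO with LPS. The shares over all promoters were 30.4%, 30.4%, 30.6% and 29.5%. The H19 call was the faint peak over its control region, at the outer edge of the promoter window. With promoters of 1 kb the counts were 4, 4, 4 and 3. Kcnq1ot1 had the strongest peak, at 14.8-fold in CTCF-WT, 16.2-fold with LPS, 20-fold in CTCF-KO and 12.7-fold in CTCF-KO with LPS. Rasgrf1 stood at 8.52-, 8.82-, 13.6- and 11.8-fold, so both CTCF-KO values were above both CTCF-WT values in these single lists. Mest stayed between 5.57- and 6.81-fold. Peg3 stood at 4.58-, 8.23- and 5.32-fold and had no peak in CTCF-KO with LPS. Igf2, Meg3, Dlk1, Grb10 and Snrpn had no H3K4me3 peak within 2.5 kb of the start of the longest transcript in any list. At another annotated start of Igf2 a faint one was called in CTCF-KO alone (3.18-fold).

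**Figure D4:**
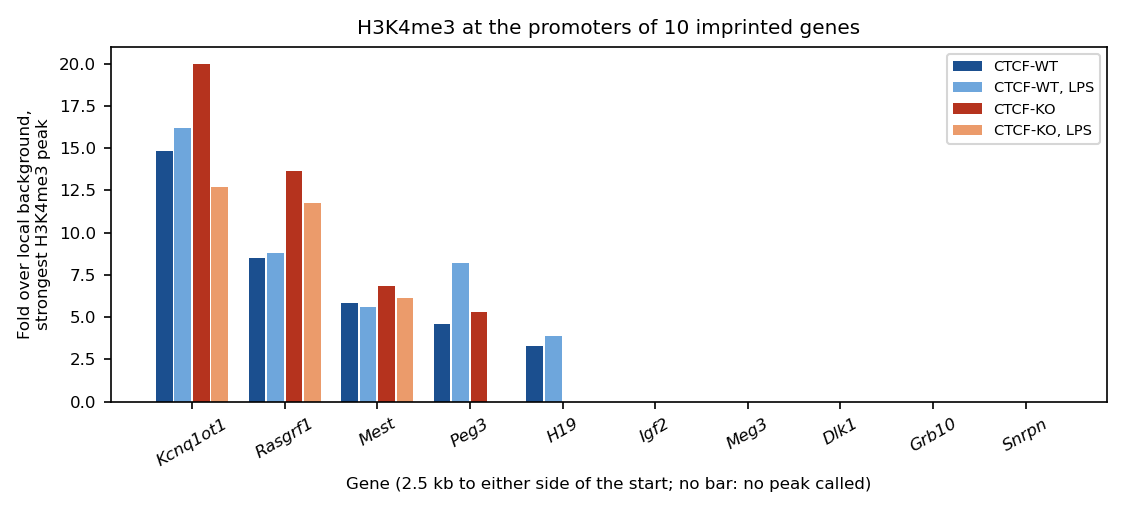
Fold over local background of the strongest H3K4me3 peak within 2.5 kb of the start of each gene in the 4 lists, with no bar where no peak was called. Kcnq1ot1 and Rasgrf1 stood highest, and 5 genes had no peak in any list.

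H3K27ac, a mark of active promoters and enhancers, was at 1 of the 10 promoters in every condition, beside 26.4%, 24.8%, 25.9% and 23.8% over the genome. The gene was Kcnq1ot1, with 3.68-, 5.52-, 6.25- and 2.98-fold peaks of 7, 13, 13 and 6 fragments. H3K27ac covered 2.56%, 1.61%, 1.93% and 1.04% of the windows, but without the Rasgrf1 window 0.346%, 0.114%, 0.259% and 0.0738%, against 2.24%, 2.19%, 1.52% and 1.19% of the genome. Peg3, Snrpn and the domain of Meg3 and Dlk1 had no H3K27ac peak in their windows in any list.

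H3K27me3, the repressive mark laid down by Polycomb, covered more of these windows than of the genome. It lay over 15.5% of the windows in CTCF-WT, 8.81% with LPS, 15.7% in CTCF-KO and 3.60% in CTCF-KO with LPS, beside 4.29%, 2.08%, 4.14% and 0.687% of the genome. The LPS lists were shorter genome-wide, and each H3K27me3 list ended at its own lowest -log10 p, from 2.72 in CTCF-WT to 3.47 in CTCF-KO with LPS, so the drop with LPS cannot be told apart from the drop of the whole list. With the 4 lists held to the highest of these floors the windows were covered at 12.1%, 8.44%, 12.7% and 3.60%.

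The windows differed widely in this mark. The window of H19 and Igf2 was covered at 18.99%, 5.85%, 26.6% and 5.31% in the 4 conditions, that of Kcnq1ot1 at 26.7%, 19.6%, 28.9% and 7.17%, and that of Grb10 at 23.5%, 17.6%, 31.7% and 9.63%. Coverage of the whole window in CTCF-KO was thus above CTCF-WT at these 3 without LPS. Over the genes alone it was lower in CTCF-KO at Kcnq1ot1 (36.2% and 25.6%) and H19 (8.72% and 0%). It was higher there at Igf2 (41.7% and 60.5%) and Grb10 (16.9% and 29.6%). Window coverage in CTCF-KO was below CTCF-WT at Mest (23.5% and 13.7%), Meg3 and Dlk1 (12.96% and 8.31%) and Rasgrf1 (19.6% and 15.4%). Peg3 had 1.01% in CTCF-WT and none elsewhere, and Snrpn had none in any list.

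**Figure D5:**
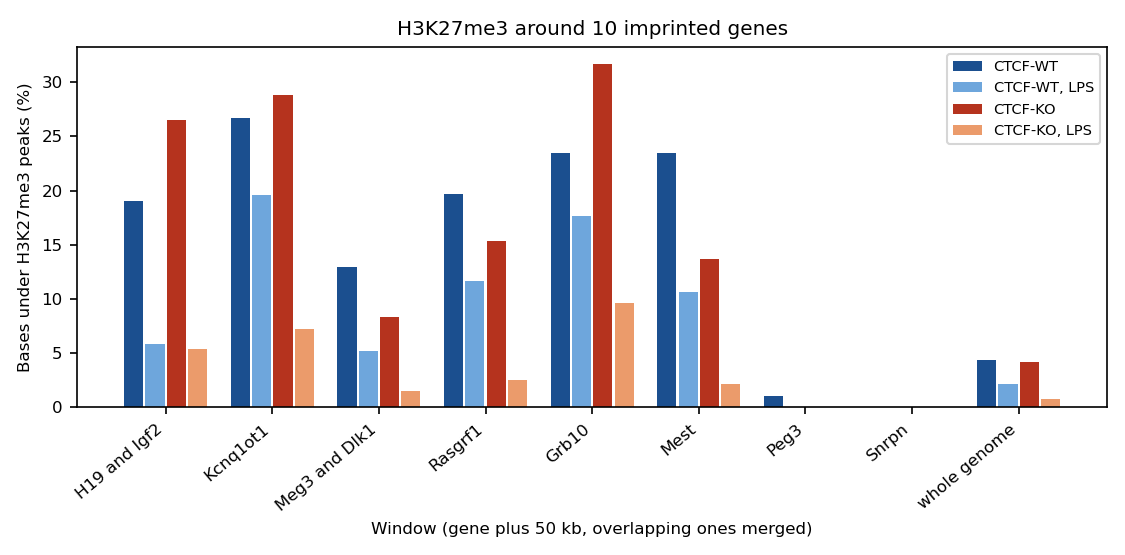
Share of bases under H3K27me3 peaks (%) in each window and in the whole genome, in the 4 conditions. Kcnq1ot1 and Grb10 were covered most, Snrpn at 0 in every list, and in the 6 windows with the mark in all 4 lists each LPS list was below the untreated list of its genotype.

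At the promoters H3K27me3 was called at 8 of the 10 genes in CTCF-WT, 5 with LPS, 7 in CTCF-KO and 3 in CTCF-KO with LPS, beside 22.3%, 16.2%, 22.4% and 8.60% over the genome. Grb10 and Dlk1 carried it in all 4 lists, with 42.4 to 72.9% and 19.98 to 44.5% of the 5 kb around their starts covered. Igf2 was covered at 32.0% in CTCF-WT, 8.46% with LPS and 68.6% in CTCF-KO, with no peak in CTCF-KO with LPS. Rasgrf1 carried H3K27me3 together with H3K4me3 in CTCF-WT (83.7% of the promoter covered), with LPS (51.1%) and in CTCF-KO (67.2%), and H3K4me3 without H3K27me3 in CTCF-KO with LPS. Mest showed the same pairing, covered at 46.2%, 4.92% and 27.3% in those 3 lists. Both marks were also called at H19 and Peg3 in CTCF-WT and at Kcnq1ot1 in CTCF-KO.

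H3K4me1, which marks enhancers and the flanks of promoters, was at 3, 3, 4 and 2 of the 10 promoters, beside 40.5%, 40.4%, 40% and 32% over the genome. Kcnq1ot1 carried it in all 4 lists, Mest in all but CTCF-KO with LPS, Rasgrf1 in all but CTCF-WT and Meg3 in CTCF-WT and CTCF-KO. Peg3 and Snrpn had no H3K4me1 peak in their windows.

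p65 was at no member promoter in any list, where the shares over all promoters were 0.318% in CTCF-WT, 1.99% with LPS, 0.265% in CTCF-KO and 1.18% in CTCF-KO with LPS. STAT5 was likewise at none, beside 2.96% in CTCF-WT and 2.53% in CTCF-KO. Rasgrf1 alone had peaks of either factor in its window. A p65 peak 37.7 kb upstream of Rasgrf1 was called at 15.1-fold in CTCF-WT with LPS (27 fragments) and 8.81-fold in CTCF-KO with LPS (15), and in neither untreated list. At that place SMC1 stood at 3.44-fold in CTCF-WT, 6.50-fold with LPS, 3.79-fold in CTCF-KO and 4.19-fold in CTCF-KO with LPS. A weaker p65 peak 124.3 kb downstream was called in CTCF-WT with LPS alone (5.39-fold). STAT5 was 35.2 kb upstream of Rasgrf1 at 20.6-fold in CTCF-WT and 15.5-fold in CTCF-KO. A second STAT5 peak, in Ctsh 150.5 kb downstream, was called in CTCF-WT alone (6.87-fold, 15 fragments).

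Among 44 other imprinted genes and their neighbours, CTCF was at 10 promoters in CTCF-WT, 12 with LPS, 5 in CTCF-KO and 2 in CTCF-KO with LPS, against 3, 3, 1 and 0 of the 10 genes. These were 22.7%, 27.3%, 11.4% and 4.55% of the 44, near the 21.3%, 19.6%, 11.6% and 6.45% of all annotated promoters. Of the 10 promoters with CTCF in CTCF-WT, 7 had no peak in either CTCF-KO list: Herc3, Cdkn1c, Peg13, Slc22a18, Blcap, Peg12 and Magel2. Their folds in CTCF-WT ran from 13.3 at Herc3 to 5.49 at Magel2. Over all CTCF peaks of CTCF-WT 76.3% were lost in CTCF-KO. That share counts peaks rather than promoters and uses CTCF-KO alone, so it is not a like measure. Annotated promoters with a CTCF peak numbered 11830 in CTCF-WT, 6450 in CTCF-KO and 3574 in CTCF-KO with LPS. Cdkn1c, a maternally expressed cell cycle inhibitor controlled by Kcnq1ot1, had an 11-fold CTCF peak in CTCF-WT. H3K4me3 was at 24, 23, 24 and 20 of the 44 (54.5%, 52.3%, 54.5% and 45.5%), beside 30.4%, 30.4%, 30.6% and 29.5% of all promoters. H3K27me3 was at 19, 14, 15 and 7 (43.2%, 31.8%, 34.1% and 15.9%), beside 22.3%, 16.2%, 22.4% and 8.6% of all promoters. The promoter of Cdkn1c was most like that of H19, with the same call in 25 of 30 lists, and that of Magel2 was most like Meg3, in 26 of 30. Igf2r and Cdkn1c tied as most like Mest, also in 26 of 30. Many of these shared calls are absences, as p65 and STAT5 were at none of the 44.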

How the data were processed

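Chromatin of CTCF-WT and CTCF-KO BMDCs was profiled by ChIP-seq in 30 immunoprecipitations, with 4 inputs that had no peak list. Reads were aligned to mm10 with BWA 0.7.12, duplicates were removed with Picard 1.77 and peaks were called with MACS2 2.1.2 per the submitters' processing notes, which also list deepTools 3.1.3; the methods of the study give other versions of these tools. The methods describe peak calling on individual replicates and a later merging of reproducible replicates, and do not say which of these the deposited lists hold, with 1 list per antibody and condition. Narrow peaks were deposited for CTCF, SMC1, H3K4me3, H3K27ac, p65 and STAT5 and broad peaks for H3K27me3 and H3K4me1. In the deposited lists the strength of each peak is a ratio, the fold of its fragments over the local background, at the summit of a narrow peak and as a mean over a broad one. The authors also give each peak's p-value and q-value as -log10 values, and the scores derived from these were not used.

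Promoters and windows were set from GENCODE M21 on the GRCm38 assembly, the same build as mm10. Peaks that had 1 bp or more in common with the partner list were called kept. Fragments and local background were recovered from fold and -log10 p, as the fold adds 1 to both and p is the Poisson tail. Values within 0.002 on -log10 p were accepted, and at least 99.96% of the peaks with -log10 p below 25 were matched. The usual background recovered in this way served as the depth, at 2.82 to 3.74 fragments for CTCF and 4.49 to 5.76 for SMC1. No test across conditions was possible with 1 list each. Shares have 95% Wilson intervals for counting error only. The scripts were tested on simulated data.

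All 10 genes are named. Of the 44 other imprinted genes, those with a CTCF promoter peak in CTCF-WT and none in either CTCF-KO list are named, as is the gene whose promoter calls were most like those of a member. The members and lists were chosen with earlier results of these data known. Overlap, thresholds, flanks, depth, promoter definition and motif were varied, and each window was left out in turn. RefSeq promoters of the 9 genes with an entry were searched for the motif but not printed. Analyses used Python 3.11.15, pandas 2.3.3, numpy 2.4.6 and scipy 1.17.1.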

Additional observations from a re-analysis of the deposited data

Results flagged for a closer look

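For 2 marks the CTCF-KO list differed from the CTCF-WT list in opposite directions without and with LPS. H3K27me3 had 161 peaks in the windows in CTCF-WT and 166 in CTCF-KO, a difference of 5, but 133 and 67 with LPS, a difference of -66. H3K4me1 had 42 and 44 peaks, a difference of 2, and 42 and 34 with LPS, a difference of -8. Each value is 1 list, and the difference between the contrasts was not tested. The CTCF-KO list with LPS was the shortest of the 4 over the whole genome for both marks, with 26960 H3K27me3 and 79120 H3K4me1 peaks, against 65880 and 89884 in CTCF-WT with LPS.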

How the results depend on the processing

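Each count and share was recomputed under other settings, 172 in all, of which 134 left it within its interval or within 1.5 times and 38 moved it. With at least 50% of a CTCF peak covered by its partner, 0% of the CTCF peaks were kept both without and with LPS. The peaks of the CTCF-KO lists were narrower (a median of 459 bp against 1443 bp over all kept CTCF peaks). The share over the genome under this rule was not computed, so whether 0% is particular to these windows cannot be told. A flank of 20 kb lowered the CTCF share with LPS to 8.33% and the SMC1 share with LPS to 23.5%. Without the window of H19 and Igf2, 11.8% of the CTCF peaks of CTCF-WT were kept. Without that of Rasgrf1, 29.4% of the SMC1 peaks were kept, and 8.33% with LPS.

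Promoters of 1 kb held CTCF at 1 gene in CTCF-WT, 1 with LPS and 0 in CTCF-KO, SMC1 at 1 and 0 in the CTCF-WT lists, H3K27ac at 0 in CTCF-WT with LPS and H3K27me3 at 3 in CTCF-WT with LPS. H3K4me1 was then at 1 in CTCF-WT, 2 in CTCF-KO and 0 in CTCF-KO with LPS. Counting all transcript starts gave SMC1 at 2 in CTCF-WT with LPS, H3K27ac at 2 in CTCF-KO, H3K27me3 at 5 in CTCF-KO with LPS and H3K4me1 at 5 in both CTCF-WT lists. A lowest -log10 p of 10 left H3K4me3 at 2 promoters in CTCF-WT and 3 with LPS, and H3K27ac at 0 in CTCF-WT, CTCF-WT with LPS and CTCF-KO with LPS. With 1 floor for the 4 lists H3K27me3 was at 5 promoters in CTCF-WT. Over gene bodies alone, H3K27ac covered 0.796% with LPS in CTCF-WT and 0.234% in CTCF-KO with LPS.

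The 14-base consensus was at 1 summit in CTCF-WT, CTCF-WT with LPS and CTCF-KO and at 0 in CTCF-KO with LPS. A 200 bp window gave 2 in CTCF-KO with LPS. With 1 mismatch, an alternative chosen after seeing the data, the 12-base pattern was at 8 in CTCF-WT, 4 in CTCF-KO and 2 in CTCF-KO with LPS. No paired analysis was possible because each antibody and condition had 1 list. Depth limits the losses at faint sites, as a CTCF peak of either CTCF-KO list needed about 15 fragments, and the faintest H3K4me3 and H3K27ac peaks had 5 to 6.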
